A study of Mus musculus with 17 samples.

Results

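The genes described here are 10 mouse enzymes that remove superoxide or peroxides: Sod1, Sod2, Sod3, Cat, Gpx1, Gpx3, Gpx4, Prdx1, Prdx3 and Prdx5. They were chosen by name, and all 10 were found in each of the 17 count files among 53313 gene identifiers that the files share. Poly(A) RNA was measured by strand-directional bulk RNA sequencing in cultured tubular cells and in whole kidney pieces of wild-type C57BL/6Rj mice. This is the spelling of the sample labels, and the study's methods name the strain C57BL/6JRj. Primary tubular epithelial cells (PTEC), which the labels call proximal, were grown from collagenase-digested kidneys. They were sampled at day 6 without irradiation (non-senescent, n = 4) or at day 16 after 10 Gy of γ-irradiation (senescent, n = 4). Irradiated cells had thus also been kept longer in culture, and the effects of the 2 cannot be told apart. Kidneys came from male mice aged 3, 12 and 24 months (n = 3 at each age). No genotype other than wild-type was used in any group.

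Superoxide dismutases turn superoxide into hydrogen peroxide and oxygen, with Sod1 mainly in the cytosol, Sod2 in the mitochondrial matrix and Sod3 outside the cell. Catalase breaks down hydrogen peroxide in peroxisomes, glutathione peroxidases reduce hydrogen peroxide or lipid peroxides with glutathione, and peroxiredoxins reduce peroxides with a reactive cysteine that thioredoxin recharges. In the kidney the proximal tubule is rich in mitochondria and peroxisomes and is the main source of the Gpx3 protein of blood plasma.

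The libraries held 26963442 to 35409144 counts in PTEC and 37311247 to 66894790 in kidneys. The label of the cultures was checked against 12 proximal tubule markers. In kidneys all 12 were at 1 CPM or more (CPM, counts scaled to a common library size), whereas 5 to 8 of the 12 were in non-senescent PTEC and 4 to 5 in senescent PTEC. The sum of these markers was 214 to 816 CPM in non-senescent and 255 to 491 CPM in senescent PTEC, the highest library being non-senescent culture 4. Of the 6 with enough counts to be tested, 3 were lower in senescent PTEC and 0 higher, beside 19.7% and 20.1% of all genes tested. In edgeR these were Slc27a2 (−3.51, adjusted p = 0.0127), Kap (−3.19, adjusted p = 0.00181) and Slc5a2 (−2.41, adjusted p = 0.0308). The transporters Slc22a6, Slc22a8 and Slc7a13 and the enzyme Miox were at no more than 10 counts in any PTEC library, while Lrp2, the endocytic receptor megalin, was at 65.5 to 539 CPM. Smooth muscle markers summed to 103 to 282 CPM in non-senescent and 926.5 to 2213 CPM in senescent PTEC, fibroblast markers to 14.5 to 102 and 108 to 411 CPM, and podocyte markers to 66.6 to 122 and 194 to 381 CPM. Markers of the loop of Henle and distal nephron summed to 7.10 to 34.5 CPM in non-senescent PTEC and to 0.587 to 0.9996 CPM in senescent PTEC. Samples also differed within groups: in each group 1 library was enriched in short transcripts (exons under 1000 bp in all), and several of the 10 genes moved with that library, as given beside the results. In bulk samples, fewer cells of a type and less RNA per cell cannot be told apart.

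Between senescent and non-senescent PTEC, Gpx1, Prdx1, Prdx3 and Sod3 transcripts were called down-regulated and none of the 10 genes was up-regulated. The Sod3 call did not hold with same-numbered cultures paired (−1.44, edgeR adjusted p = 0.211). The number called lower lay between 1 and 4 when 1 library was left out, being 1 (Gpx1) without non-senescent culture 3. Gpx1, the glutathione peroxidase of cytosol and mitochondria, was lower in every senescent than in any non-senescent library, at 272 ± 42.6 CPM against 477 ± 147 CPM (mean ± SD, n = 4 each). Prdx3, the mitochondrial peroxiredoxin, was at 75.6 ± 8.76 against 118 ± 25.1 CPM, and Prdx1, the abundant cytosolic one, at 970.4 ± 102 against 1541 ± 433 CPM (mean ± SD, n = 4 each). Among all 15434 genes tested, 20.1% were called higher and 19.7% lower, 39.8% in all (adjusted p under 0.05 in edgeR's quasi-likelihood test and a log2 fold change beyond 0.5 in size), against 4 of the 10 genes called lower and 0 higher. The median log2 fold change of the 10 genes was −0.33 and that of all genes tested 0.00. By unadjusted p in edgeR, 5 of the 10 were under 0.05, the additional one being Sod2, as were 51.6% of all genes tested. DESeq2 called the same 4 genes, beside 3506 higher and 3286 lower of the 30570 genes it tested. In CPM 3 of the 10 were lower without overlap between the groups and 0 higher, where 19.9% of all genes tested were lower and 22.1% higher without overlap.

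Sod1 (ENSMUSG00000022982, chr16:90220754-90226329, plus strand, GRCm38), the copper-zinc enzyme of the cytosol, was at 169.7, 153, 294 and 127 CPM in non-senescent cultures 1 to 4 and at 154, 153, 201 and 137 CPM in the senescent ones. The groups overlapped, culture 3 was highest in both, and the log2 fold change was −0.21 (SE 0.25, edgeR adjusted p = 0.533). Its direction turned with the length trend, or length and GC trends, removed, and within the range of fits without 1 library. Sod2 (ENSMUSG00000006818, chr17:13006846-13040063, plus strand), the manganese enzyme of mitochondria, was at 75.6, 63.2, 88.4 and 72.6 CPM in non-senescent and at 57.2, 60.4, 59.3 and 54.3 CPM in senescent PTEC. Every senescent library lay below every non-senescent one. Its log2 fold change of −0.38 (SE 0.13, edgeR adjusted p = 0.0369) was within the threshold on size, so Sod2 was not counted as called. With length and GC trends removed, an alternative added after seeing the data, Sod2 was called lower.

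Sod3 (ENSMUSG00000072941, chr5:52363791-52371418, plus strand), the secreted dismutase, was at 5.90, 4.69, 34.1 and 58.5 CPM in the non-senescent and at 7.88, 7.40, 4.19 and 4.35 CPM in the senescent cultures. Only non-senescent cultures 3 and 4 were above every senescent one, and the groups overlapped. It fell by 2.11 on the log2 scale (SE 0.73, edgeR adjusted p = 0.0401). Between cultures of the same number it was 0.42, 0.66, −3.02 and −3.75 in log2, with only 2 of 4 lower. With the culture number as a block the log2 fold change was −1.44 (edgeR adjusted p = 0.211), and the call was also lost without non-senescent culture 3 or 4 or any 1 senescent culture, 6 of 8 such fits (edgeR adjusted p 0.0121 to 0.140 over the 8, log2 fold change −2.46 to −1.32). The proximal marker sum of non-senescent cultures 1 to 4 was 223, 214, 287 and 816 CPM, in the same order as Sod3. In senescent cultures 1 to 4 it was 491, 333, 255 and 445 CPM, a sum made up mostly of Lrp2 and Ass1. Other markers of the list were lower with Sod3, Kap at 8.501 to 49.3 CPM in non-senescent and 1.71 to 5.70 CPM in senescent PTEC and Slc27a2 at 5.22 to 56.7 and 0.268 to 3.81 CPM, while Ass1 was at 83.3 to 118 CPM in non-senescent and 122 to 160.4 CPM in senescent PTEC (0.48, edgeR adjusted p = 0.0313) and Lrp2 had a log2 fold change of 0.17. The part of these markers in the Sod3 result was not tested.

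Cat (ENSMUSG00000027187, chr2:103453849-103485160, minus strand), the peroxisomal catalase, was at 306, 241, 319 and 299.5 CPM in non-senescent and 258, 256, 223 and 217 CPM in senescent PTEC. Only non-senescent culture 2 was inside the senescent range. It did not pass (log2 fold change −0.29, SE 0.14, edgeR adjusted p = 0.111).

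Gpx1, Gpx3 and Gpx4 are selenoproteins, in which a TGA codon is read as selenocysteine, the residue at the active centre. The codon with its 30 bases on either side is shown for the 3 genes, read from the GENCODE M21 transcripts 5′ to 3′ with the selenocysteine codon in capitals, because it is the feature that sets these members apart from the other 7. It is codon 47 of 201 in Gpx1 (chr9:108339451-108339453), codon 73 of 226 in Gpx3 (chr11:54907256-54907258) and codon 129 of 253 in the Gpx4-201 transcript (chr10:80054737-80054739), all in coding sequence on the plus strand of GRCm38. The coding sequences of the other 7 genes hold 0 annotated selenocysteine codons.
Gpx1: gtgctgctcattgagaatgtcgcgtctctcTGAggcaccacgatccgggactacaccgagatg
Gpx3: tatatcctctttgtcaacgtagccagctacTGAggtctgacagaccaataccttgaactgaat
Gpx4: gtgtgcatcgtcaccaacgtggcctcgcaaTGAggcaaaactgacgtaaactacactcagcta

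Gpx1 (ENSMUSG00000063856, chr9:108338903-108340343, plus strand) was at 413, 368, 693 and 432 CPM in the non-senescent and at 269, 252, 332 and 234 CPM in the senescent cultures. All senescent libraries were below all non-senescent libraries and each was below the non-senescent culture of its own number. Gpx1 fell by 0.81 on the log2 scale (SE 0.21, edgeR adjusted p = 0.0130), and Gpx1 remained called whichever library was left out (−0.92 to −0.57).

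Gpx3 (ENSMUSG00000018339, chr11:54902453-54910377, plus strand), the secreted enzyme of plasma, was at 2106, 2148, 3000.4 and 3298.5 CPM in non-senescent and at 3893.5, 4235, 2425 and 2375.5 CPM in senescent PTEC. Senescent cultures 1 and 2 were above every non-senescent one, whereas cultures 3 and 4 were below their non-senescent counterparts. The log2 fold change of 0.29 (SE 0.25, edgeR adjusted p = 0.375) did not pass. Per culture number the log2 difference was 0.89 and 0.98 in cultures 1 and 2 and −0.31 and −0.47 in cultures 3 and 4. In the counts as a whole, too, cultures 1 and 2 were the most alike, with a chi-square per degree of freedom of 21.6 between their non-senescent libraries against 92.9 to 213 for the other non-senescent pairs.

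Gpx4 (ENSMUSG00000075706, chr10:80047166-80056439, plus strand), which reduces lipid peroxides in membranes, was at 226, 217, 472 and 256 CPM in non-senescent and 237, 233, 321 and 243 CPM in senescent PTEC. The groups overlapped and culture 3 stood apart as the highest in both. The log2 fold change was −0.18 (SE 0.25, edgeR adjusted p = 0.594) and became 0.15 without non-senescent culture 3. In that culture the median deviation of short transcripts from the group was 0.58 in log2, and 0.35 in senescent culture 3, where the other cultures lay between −0.23 and −0.07. The part of this enrichment in the PTEC results was not tested gene by gene. With both culture 3 libraries left out, an alternative chosen after seeing the data, Gpx1 (−0.68) and Prdx3 (−0.56) remained called, and Prdx1 (−0.53, edgeR adjusted p = 0.0627) and Sod3 (−1.80, edgeR adjusted p = 0.156) did not.

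Prdx1 (ENSMUSG00000028691, chr4:116685544-116700822, plus strand) was at 1711, 1343, 2051 and 1058 CPM in the non-senescent and at 931, 1059.7, 1047 and 844 CPM in the senescent cultures. Each senescent culture was below its counterpart, and the groups overlapped only through non-senescent culture 4 and senescent culture 2. The log2 fold change was −0.67 (SE 0.21, edgeR adjusted p = 0.0279), and the call was lost without non-senescent culture 1 or 3 or senescent culture 1, 2 or 4 (−0.82 to −0.50 over the 8 fits, edgeR adjusted p 0.00644 to 0.0836).

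Prdx3 (ENSMUSG00000024997, chr19:60864051-60874556, minus strand) was at 113, 93.6, 153 and 112 CPM in non-senescent and at 68.3, 70.3, 87.8 and 76.0 CPM in senescent PTEC. No senescent library reached the lowest non-senescent one. Prdx3 fell by 0.64 on the log2 scale (SE 0.16, edgeR adjusted p = 0.0113), and the log2 fold change was −0.49 without non-senescent culture 3, just inside the threshold on size. The call was also lost with length and GC trends removed (−0.47), an alternative added after seeing the data. Prdx5 (ENSMUSG00000024953, chr19:6906697-6910106, minus strand), found in mitochondria, peroxisomes and cytosol, was at 287, 253, 532 and 321 CPM in non-senescent and at 232, 195, 421 and 319.7 CPM in senescent PTEC. It was lower in 4 of 4 culture numbers, though the groups overlapped and the log2 fold change of −0.26 (SE 0.29, edgeR adjusted p = 0.509) did not pass. Its direction turned within the range of fits without 1 library. Prdx5 shares 409 exonic bases with Trmt112 on the opposite strand, and since the strand setting of the counting is not given in the sources used here, its reads may be mixed with those of Trmt112.

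**Figure D1:**
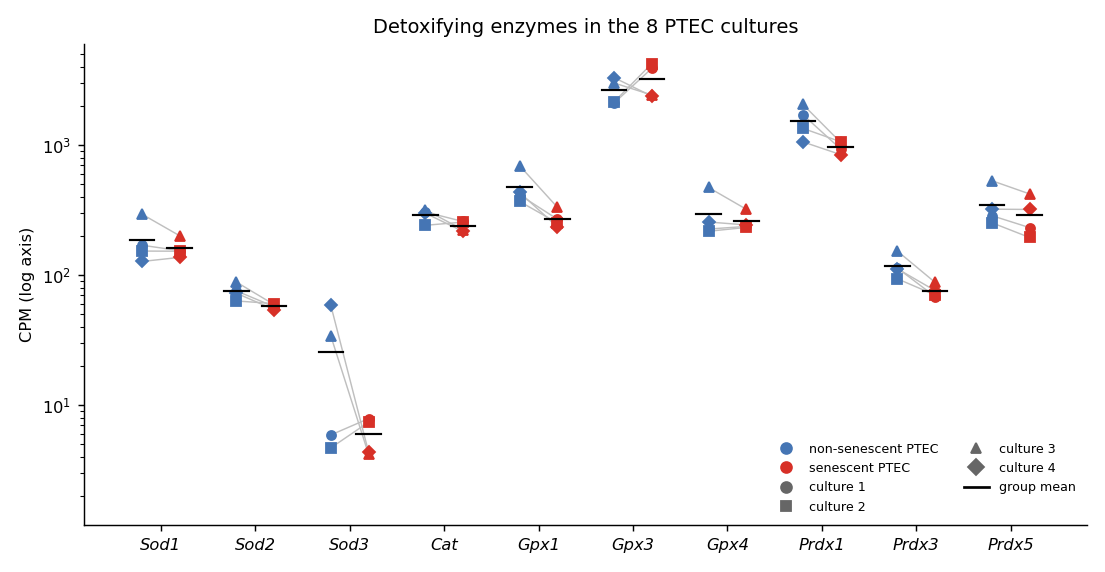
Level of each of the 10 genes in CPM (log axis) in the 4 non-senescent and 4 senescent PTEC libraries, 1 symbol per library, with black bars at the group means and grey lines joining cultures of the same number. Gpx1, Prdx3 and Sod2 do not overlap between groups, and Sod3 is high only in non-senescent cultures 3 and 4.

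Promoters were examined for 9 of the 10 genes matched in RefSeq (GRCm38.p6), over the 250 bases before the RefSeq start. The letters TGACNNNGC of the antioxidant response element, the site bound by the oxidant-responsive factor Nrf2, were found on either strand in 3338 of 32851 mouse promoters of the same length (10.2%). They were found in 2 of the 9 genes, Prdx1, which was down-regulated in senescent PTEC, and Sod1, which was not called. This count is per gene and the share per promoter, as Gpx4 has 4 promoters and each other gene 1. Sod3, a called gene, had no promoter to search. The letters lie 133 to 125 bases before the start in Prdx1 and 56 to 48 bases before it in Sod1, on the strand opposite to the gene in both, and overlap no GC box (GGGCGG) or TATA box (TATAAA) match. GC box letters occurred in 32.7% of all promoters and TATA box letters in 12.4%. Prdx3 and Gpx1, which were also down-regulated, held no TGACNNNGC, which says only that these letters are not in the window. The upstream stretches of Prdx1 (chr4:116685349-116685543, plus strand), Sod1 (chr16:90220512-90220753, plus strand) and Prdx3 (chr19:60874557-60874788, minus strand) are shown to compare a called gene with the letters, an uncalled gene with them and a called gene without them. They end before the first transcript base annotated in GENCODE M21, which lies upstream of the RefSeq start. They thus hold the first 195, 242 and 232 of the 250 bases, and the distances above do not count from their ends. They are read 5′ to 3′ on the strand of the gene, and capitals mark the match.
Prdx1: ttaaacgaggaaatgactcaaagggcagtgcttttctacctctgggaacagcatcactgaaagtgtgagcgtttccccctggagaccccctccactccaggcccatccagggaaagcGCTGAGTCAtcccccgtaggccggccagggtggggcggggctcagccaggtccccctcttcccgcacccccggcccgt
Sod1: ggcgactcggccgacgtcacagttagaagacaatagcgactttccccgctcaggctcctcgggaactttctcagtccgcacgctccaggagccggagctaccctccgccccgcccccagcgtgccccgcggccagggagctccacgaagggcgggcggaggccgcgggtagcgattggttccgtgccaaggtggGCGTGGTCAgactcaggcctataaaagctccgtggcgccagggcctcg
Prdx3: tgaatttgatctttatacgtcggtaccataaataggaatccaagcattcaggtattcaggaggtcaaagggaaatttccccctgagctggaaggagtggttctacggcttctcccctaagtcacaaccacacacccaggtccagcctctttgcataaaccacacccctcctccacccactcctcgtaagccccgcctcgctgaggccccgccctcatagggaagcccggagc

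The genes that surround these enzymes in the pathway were summarised from lists chosen by function. Their counts stand beside 20.1% of all genes tested called higher and 19.7% lower in PTEC, and their medians beside one of 0.00. Of 17 genes that recycle thioredoxin and glutathione, 11 were lower in senescent PTEC and 0 higher, with a median log2 fold change of −0.73. Idh2, which makes mitochondrial NADPH, was at 154, 149, 244 and 199 CPM in non-senescent and 55.2, 57.4, 63.2 and 44.3 CPM in senescent PTEC. The groups were well apart, with a log2 fold change of −1.76 (SE 0.19, edgeR adjusted p = 1.03e-04). Of the called genes of this list the smallest change was in Txnrd3, a thioredoxin reductase (−0.70, SE 0.17, edgeR adjusted p = 0.00845).

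Of 6 other glutathione peroxidases and peroxiredoxins tested, 2 were higher and 2 lower, with a median log2 fold change of −0.06. Gpx2, the glutathione peroxidase best known from the gut epithelium, was at 2.61, 1.51, 2.16 and 1.59 CPM in non-senescent and 0.0643, 0.0670, 0.162 and 0.138 CPM in senescent PTEC. It had 2 to 6 counts in each senescent library, and its log2 fold change was −4.12 (SE 0.38, edgeR adjusted p = 4.27e-05). Gpx7, a peroxidase of the endoplasmic reticulum, rose by 1.15 on the log2 scale (SE 0.32, edgeR adjusted p = 0.0161), from 1.44 to 3.18 CPM in non-senescent to 3.24 to 7.21 CPM in senescent PTEC. No library of the groups overlapped for either gene.

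Of 8 genes of selenoprotein synthesis and selenium supply, 3 were lower and 0 higher (median −0.46). Sephs2, which makes the selenium donor, changed the most of those called (−0.95, SE 0.17, edgeR adjusted p = 0.00180) and Scly, which frees selenium from selenocysteine, the least (−0.52, SE 0.19, edgeR adjusted p = 0.0459). Of 6 genes that supply metal to the dismutases, 2 were lower and 0 higher (median 0.03), namely Slc39a14, a manganese and zinc importer (−1.66, SE 0.21, edgeR adjusted p = 2.34e-04), and Slc31a1, the copper importer (−0.67, SE 0.13, edgeR adjusted p = 0.00238). Slc39a14 was at 173 to 299.03 CPM in non-senescent and 54.5 to 73.6 CPM in senescent PTEC, without overlap.

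Of 12 tested enzymes that make superoxide or peroxide, 4 were higher and 3 lower (median 0.17), where 20.1% and 19.7% of all genes tested were. Duox2, a peroxide-making NADPH oxidase, had 0, 0, 0 and 1 counts in non-senescent and 29, 18, 53 and 15 counts in senescent cultures 1 to 4, and was called higher (edgeR adjusted p = 2.01e-04), with no fold given because of the near absence of counts in the non-senescent group. Dao, the peroxisomal D-amino acid oxidase of the proximal tubule, was at 2.49, 1.51, 20.04 and 20.7 CPM in non-senescent and 0.134 to 0.193 CPM in senescent PTEC (log2 fold change −6.05, SE 0.98, edgeR adjusted p = 9.91e-04). Like Sod3, Dao was highest in non-senescent cultures 3 and 4. Of 16 peroxisome assembly genes 0 were higher and 1 was lower, Pex10 (−0.77, SE 0.21, edgeR adjusted p = 0.0142), and the median of the list was 0.11.

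In kidneys of 24 against 3 months, none of the 10 genes passed the test, and Gpx3, highest in the oldest mice, was the only one above without overlap. Of 17067 genes tested 1.89% were called higher and 0.451% lower, 2.34% in all, beside 0 of the 10 in either direction. By unadjusted p in edgeR, 4 of the 10 were under 0.05 (Gpx3, Prdx1, Prdx3 and Prdx5), where 18.2% of all genes tested were. DESeq2 called 1 of the 10, Gpx3 (0.79, adjusted p = 0.0356). Of the 30029 genes it tested, DESeq2 called 727 higher and 308 lower. The median log2 fold change of the 10 was −0.35, against 0.00 for all genes tested. The 3-month kidneys were deposited with another set of gene identifiers than the older kidneys, so that age and that difference cannot be told apart in comparisons with 3 months.

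Gpx3 was at 14950, 17679 and 11367 CPM in the kidneys of 3 months, at 18693, 12180 and 18397 CPM at 12 months and at 27275, 23216 and 26263 CPM at 24 months. All 3 kidneys of 24 months were above all younger kidneys, and the 12- and 3-month groups overlapped. The log2 fold change was 0.80 at 24 against 3 months (SE 0.21, edgeR adjusted p = 0.0993), 0.64 at 24 against 12 months (edgeR adjusted p = 0.200) and 0.16 at 12 against 3 months (edgeR adjusted p = 0.805). The adjusted p at 24 against 3 months ranged from 0.0548 to 0.308 when 1 kidney was left out.

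Neither Gpx4 nor Gpx1 passed at 24 against 3 months. Gpx4 was at 1316, 803.5 and 2146.5 CPM at 3 months, 834, 1625 and 769 CPM at 12 months and 608, 964 and 719.6 CPM at 24 months. The groups overlapped, with a log2 fold change of −0.90 at 24 against 3 months (SE 0.40, edgeR adjusted p = 0.276), −0.49 at 24 against 12 months (edgeR adjusted p = 0.573) and −0.40 at 12 against 3 months (edgeR adjusted p = 0.722). Gpx1 ranged from 2408 to 5268 CPM at 3 months, 2374 to 4968 CPM at 12 months and 2310.4 to 3766 CPM at 24 months, with a log2 fold change of −0.41 at 24 against 3 months (SE 0.37, edgeR adjusted p = 0.525).

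Among the dismutases, Sod1 was at 925, 788 and 921 CPM at 3 months, 869, 813 and 831 CPM at 12 months and 668, 721 and 779 CPM at 24 months. Its 24-month values were below all those of 3 and of 12 months, yet the log2 fold change of −0.28 at 24 against 3 months did not pass (SE 0.13, edgeR adjusted p = 0.292). Sod2 stayed between 246 and 373 CPM over the 9 kidneys (0.04, SE 0.19, edgeR adjusted p = 0.898, at 24 against 3 months). Sod3 was at 399 to 841 CPM at 3 months, 414 to 859 CPM at 12 months and 661 to 931 CPM at 24 months (0.39, SE 0.33, edgeR adjusted p = 0.5001). Cat was at 946 to 1376 CPM at 3 months, 946 to 1301 CPM at 12 months and 848 to 1013 CPM at 24 months (−0.23, SE 0.19, edgeR adjusted p = 0.492). For these last 3 genes the ranges of the ages overlapped.

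Of the peroxiredoxins, Prdx3 was at 246, 224 and 296 CPM at 3 months, 210.2, 259.5 and 204 CPM at 12 months and 158, 203 and 173 CPM at 24 months. The 24-month kidneys were below all the younger ones, with a log2 fold change of −0.52 at 24 against 3 months (SE 0.17, edgeR adjusted p = 0.163). Prdx1 was at 989.95 to 1826 CPM at 3 months and 743 to 1084 CPM at 24 months (−0.63, SE 0.28, edgeR adjusted p = 0.271), and Prdx5 at 1947 to 3154 and 1604 to 2039 CPM (−0.51, SE 0.20, edgeR adjusted p = 0.237). Both overlapped between 3 and 24 months. Counting all 10 genes, 1 was above and 2 were below without overlap at 24 against 3 months, where 11.9% of all genes tested were above and 10.1% below.

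At 12 against 3 months 0 of the 10 genes were called and all 10 overlapped, where 1.22% of all genes tested were called higher and 1.36% lower, 2.58% in all, and 0 of the 10 had an unadjusted p under 0.05 in edgeR (16.5% of all genes did) or were called by DESeq2. Of the 30029 genes it tested, DESeq2 called 531 higher and 576 lower. Over all genes 10.9% were higher and 9.40% lower without overlap. At 24 against 12 months 0 were called, where 0.896% of all genes were called higher and 0.434% lower, 1.33% in all, 1 had an unadjusted p under 0.05 in edgeR (Gpx3, beside 15.2% of all genes) and DESeq2 called 0. Of the 30029 genes it tested, DESeq2 called 493 higher and 286 lower. In that comparison Gpx3 was above, and Sod1, Prdx3 and Prdx5 below, without overlap, as were 13.5% of all genes above and 12.2% below.

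Within each age, 1 mouse was enriched in short transcripts, with a median log2 deviation of 0.44 in mouse 3 of 3 months, 0.36 in mouse 2 of 12 months and 0.19 in mouse 2 of 24 months. In each age that mouse had the highest Gpx1, Gpx4, Prdx1, Prdx3 and Prdx5 and the lowest Gpx3, Sod3 and Cat of its group. Its log2 deviation from the group for Gpx4 was 0.71, 0.68 and 0.36, and that for Sod3 was −0.58, −0.67 and −0.30, at 3, 12 and 24 months. The part of this in the age comparisons was not tested.

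**Figure D2:**
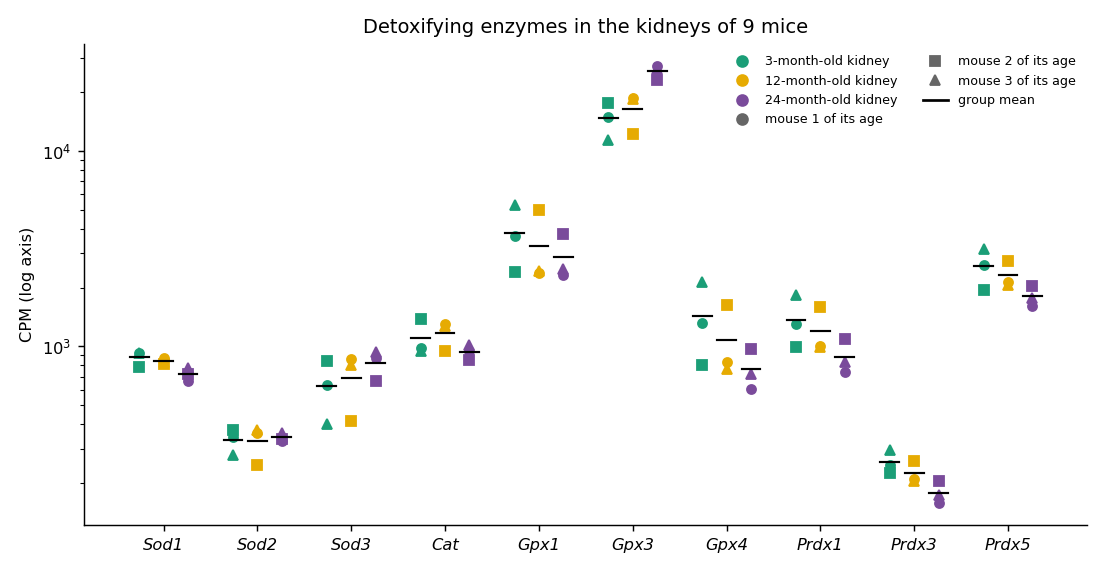
Level of each of the 10 genes in CPM (log axis) in kidneys of 3, 12 and 24 months, 1 point per mouse with black bars at the group means. Gpx3 of all 24-month kidneys lies above that of the younger ones, while Sod1 and Prdx3 lie below.

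**Figure D3:**
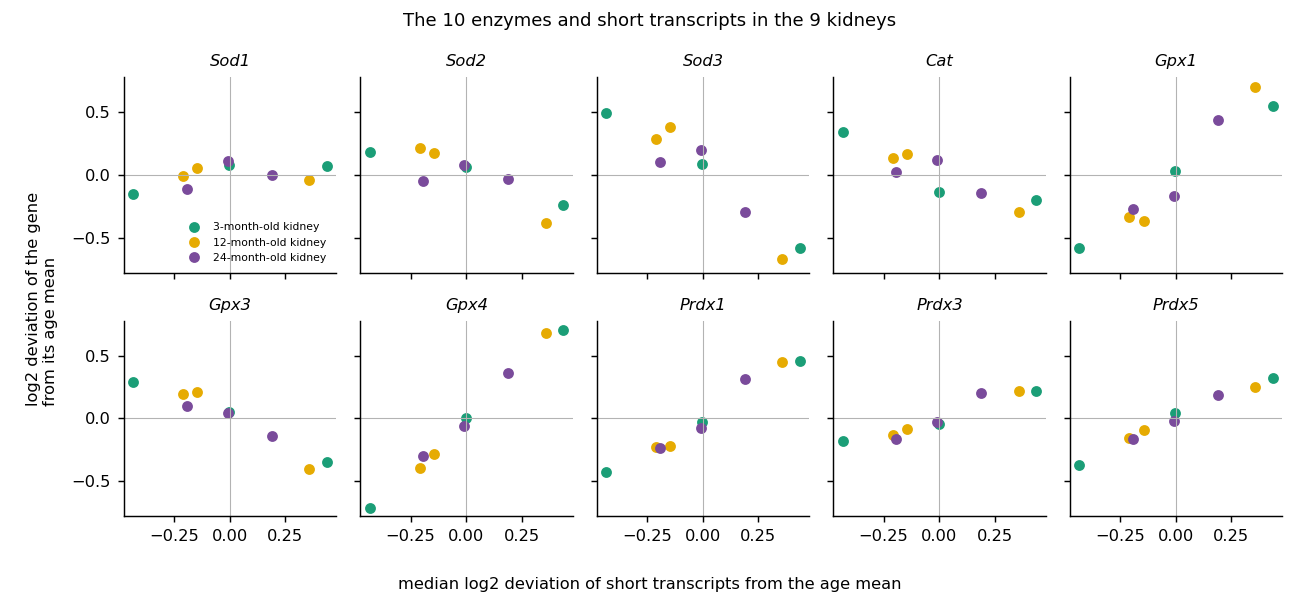
Log2 deviation of each gene from its group mean (vertical) against the median log2 deviation of short transcripts in the same library (horizontal), in the 9 kidneys, 1 point per kidney. Gpx1, Gpx4 and the peroxiredoxins are highest, and Gpx3, Sod3 and Cat lowest, in the kidney of each age that is richest in short transcripts.

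Around the 10 genes, 0 of 17 recycling genes, 0 of 8 selenium genes, 0 of 6 metal supply genes, 0 of 6 other peroxidases and 0 of 16 peroxisome assembly genes were called at 24 against 3 months in edgeR, with 4, 1, 1, 1 and 2 of them at an unadjusted p under 0.05, which 18.2% of all genes tested had. Of 14 tested enzymes that make superoxide or peroxide, 2 were higher and 0 lower. Among all genes tested 1.89% were called higher and 0.451% lower. Hao2, the peroxisomal hydroxyacid oxidase, which makes hydrogen peroxide, was at 253, 258 and 262 CPM at 3 months, 499, 476 and 425 CPM at 12 months and 464, 719 and 580.06 CPM at 24 months. Every older kidney was above every 3-month kidney, with a log2 fold change of 1.19 (SE 0.17, edgeR adjusted p = 0.0121) at 24 against 3 months. Of the 12 proximal tubule markers 3 were also higher at 24 against 3 months and 0 lower, beside 1.89% and 0.451% of all genes tested. In edgeR these were Slc5a2 (1.88, adjusted p = 0.00997), Slc5a12 (1.56, adjusted p = 0.0279) and Miox (0.74, adjusted p = 0.0449). The sum of the 12 went from 52933 to 53630 CPM at 3 months to 46199 to 51460 CPM at 24 months, with Kap, the most abundant of them, at 31170 to 39215 and 21793 to 27048 CPM (−0.50, edgeR adjusted p = 0.117). The log2 fold change was positive in 9 of the 12. The sum of 7 fibroblast and pericyte markers went from 124 to 142 CPM at 3 months to 192 to 233.5 CPM at 24 months. The part of either in the Hao2 and Gpx3 values was not tested. Cybb, the phagocyte NADPH oxidase subunit, was at 3.47, 5.72 and 4.95 CPM at 3 months, 10.5, 10.2 and 11.3 CPM at 12 months and 16.3, 9.95 and 11.8 CPM at 24 months. Again no older kidney reached down to the 3-month values (log2 fold change 1.43, SE 0.23, edgeR adjusted p = 0.0185, at 24 against 3 months). The sum of 10 leukocyte markers moved with Cybb, from 84.9 to 121 CPM at 3 months to 129 to 154 CPM at 12 months and 133 to 181 CPM at 24 months, and its part in the Cybb result was not tested.

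The 10 genes together took 0.447% to 0.722% of all counts in PTEC libraries, 2.64% to 2.77% in kidneys of 3 and 12 months and 3.44% to 3.57% in kidneys of 24 months. Gpx3 alone made up 42.7% to 64.5% of their counts at 3 months, 47.3% to 65.4% at 12 months and 68.6% to 76.8% at 24 months. In PTEC that share was 38.9% to 54.7% in non-senescent and 47.4% to 65.0% in senescent libraries.

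To compare levels between genes, CPM was divided by exon length, with all 17 libraries scaled jointly. With the merged exon length of each gene Gpx3 was first in all 5 groups, at a mean of 1315 CPM per kb in non-senescent PTEC, 1585 in senescent PTEC and 11328, 12835 and 19747 in kidneys of 3, 12 and 24 months, and ranked between 4 and 10 among all genes. In non-senescent PTEC it was followed by Prdx1 (482 CPM per kb), Gpx1 (353), Sod1 (231), Prdx5 (191), Gpx4 (183), Cat (88.7), Prdx3 (63.5), Sod2 (10.2) and Sod3 (5.47). Of these neighbours only Gpx3 and Prdx1, Gpx4 and Cat, and Prdx3 and Sod2 did not overlap between libraries. In senescent PTEC the order began in the same way with Prdx1 (298), Gpx1 (198) and Sod1 (197), and only the neighbours from Gpx1 to Prdx5 overlapped. In kidneys of 3 months Gpx3 was followed by Gpx1 (4356 CPM per kb), Prdx5 (2188), Sod1 (1688), Gpx4 (1379.6), Prdx1 (665) and Cat. The lowest levels per kb were those of Prdx3 (213), Sod3 (206) and Sod2 (69.6). Sod2 was divided by 5861 bp, and before division its mean of 408 CPM was above the 315 CPM of Prdx3. Each neighbour from Prdx5 to Cat overlapped the next between libraries, as did Prdx3 and Sod3. On its merged exon length (2544 bp) Prdx1 was second in both PTEC groups and sixth in the kidneys of 3 months. With the length of a single coding transcript, an alternative chosen after seeing the data (877 bp for Prdx1), Prdx1 was first in non-senescent PTEC at 1398 CPM per kb, overlapping Gpx3, second in senescent PTEC and in place 4 in the kidneys of 3 months. Gpx3 remained first in the other 4 groups.

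**Figure D4:**
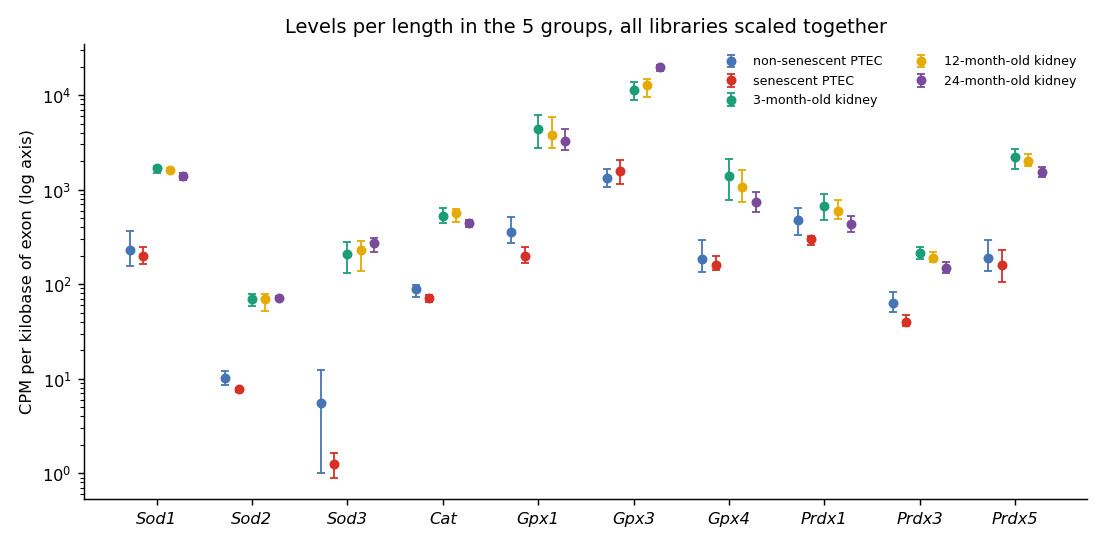
Level per exon length in CPM per kb (log axis) of the 10 genes in the 5 groups, with points at the group means, bars from the lowest to the highest library and all libraries on 1 scale. With merged exon lengths Gpx3 is first in every group (with the coding transcript length Prdx1 passes it in non-senescent PTEC), and Sod2 and Sod3 are last in PTEC.

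Non-senescent PTEC were set beside kidneys of 3 months to see which of the enzymes cultured cells keep at the level of the organ. All but Prdx1 were lower in the cultures, where 32.0% of 17999 genes tested were called higher and 35.5% lower, 67.5% in all, against 9 of the 10 genes lower and 0 higher. Without overlap in CPM, 9 of the 10 were lower, beside 33.4% of all genes lower and 29.0% higher. On the joint CPM scale Sod3 was at 3.72 to 46.3 in PTEC and 495 to 1032 in kidneys, the widest gap of the 10 (log2 fold change −5.24). Gpx1 followed with 292 to 550.2 and 2956 to 6529 CPM (−3.62), then Prdx5 (−3.52), Gpx3 (−3.11), Gpx4 (−2.92), Sod1 (−2.87), Sod2 (−2.78), Cat (−2.55) and Prdx3 (−1.75), with edgeR adjusted p between 4.59e-10 and 3.66e-06. Prdx1 overlapped, at 836 to 1629 and 1215.5 to 2263 CPM, and did not pass (−0.47, SE 0.26, edgeR adjusted p = 0.125). It was called lower without non-senescent culture 3 (−0.63, edgeR adjusted p = 0.0455).

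Library totals alone in place of trimmed scaling moved the median log2 fold change of all genes in this comparison from −0.05 to 0.55 and the share of calls that were higher from 47.4% to 64.5%. The 9 genes stayed lower under it and Prdx1 turned to 0.13 (edgeR adjusted p = 0.663). In the cultures 14 of 16 peroxisome assembly genes and 7 of 8 selenium genes were also lower and 0 of either higher. Of 17 recycling genes 5 were higher and 9 lower, of 6 metal supply genes 2 and 4, and of 7 other peroxidases 2 and 2. Of 15 tested enzymes that make superoxide or peroxide 4 were higher and 8 lower. Among all genes tested 32.0% were called higher and 35.5% lower. The sum of the proximal markers on the same scale was 170 to 645 CPM in these cultures and 64991 to 65927 CPM in the kidneys of 3 months. Culture, cell composition, gene set and sequencing cannot be told apart in this comparison.

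**Figure D5:**
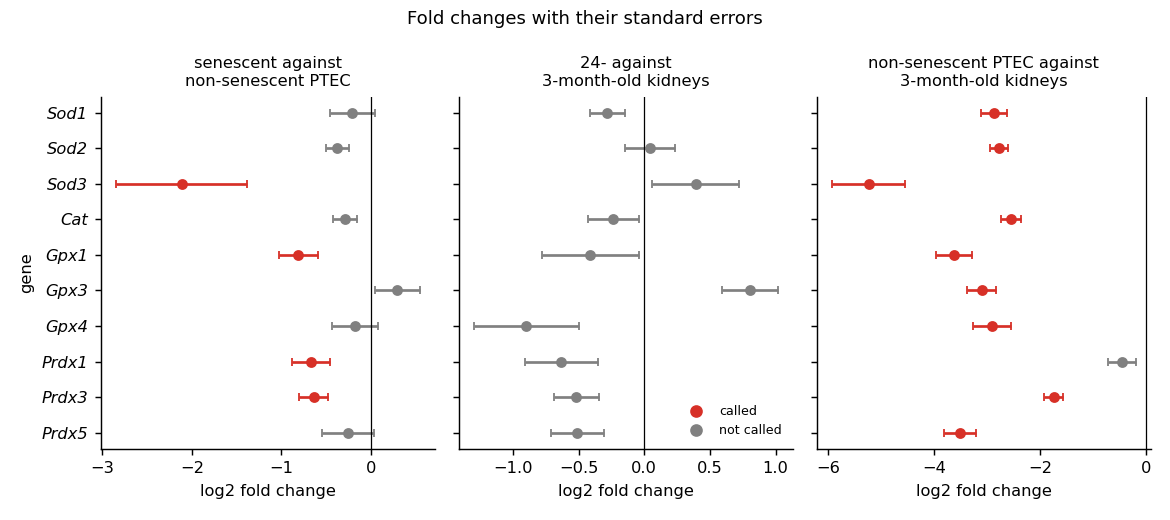
Log2 fold change with its standard error of the 10 genes in 3 comparisons, senescent against non-senescent PTEC, kidneys of 24 against 3 months, and non-senescent PTEC against kidneys of 3 months, from edgeR. Red points passed the thresholds, which 4 genes did in PTEC, 0 between ages and 9 between cultures and kidney.

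The balance between members was described with 12 log2 ratios of counts. Exact two-sided permutation tests were run on them, but the design could not pass them: the smallest p is 0.0286 for 4 against 4, 0.0571 for 4 against 3 and 0.1 for 3 against 3, and the smallest adjusted p over the 12 is 0.0857. The ratio of Gpx3 to Gpx1 had geometric means of 11.6 in senescent and 5.60 in non-senescent PTEC (exact p = 0.0571, adjusted p = 0.343). Senescent cultures 1 to 4 had ratios of 14.5, 16.8, 7.31 and 10.1 and the non-senescent ones 5.10, 5.83, 4.33 and 7.63. The groups overlapped through senescent culture 3 and non-senescent culture 4, and the ratio was higher in the senescent culture in 4 of 4 culture numbers. The ratio of Cat to Gpx1 was 0.960, 1.015, 0.671 and 0.926 in senescent and 0.740, 0.656, 0.460 and 0.693 in non-senescent PTEC, again higher in 4 of 4 culture numbers with overlapping groups (exact p = 0.0857, adjusted p = 0.343). The ratio of Sod2 to Sod1 was 0.371, 0.396, 0.296 and 0.397 in senescent and 0.446, 0.413, 0.301 and 0.570 in non-senescent PTEC, lower in 4 of 4 culture numbers with overlapping groups (exact p = 0.314, adjusted p = 0.419). That of Sod3 to Sod1 was higher in 2 and lower in 2 of the 4 culture numbers (exact p = 0.286, adjusted p = 0.419). A test on 4 pairs could not go below an exact two-sided p of 0.125. In kidneys the ratio of Gpx3 to Gpx1 had geometric means of 9.18 at 24 months and 4.01 at 3 months (exact p = 0.2, adjusted p = 0.4). Mice 1 to 3 had ratios of 11.8, 6.16 and 10.6 at 24 months and 4.06, 7.34 and 2.16 at 3 months, so the groups overlapped. The lowest ratio at either age was that of the mouse enriched in short transcripts. At the same ages the geometric mean of Sod2 to Sod1 was 0.474 and 0.376 (exact p = 0.3), that of Sod3 to Sod1 1.13 and 0.683 (exact p = 0.2) and that of Cat to Gpx1 0.336 and 0.302 (exact p = 0.9), all with overlapping groups and adjusted p of 0.4 or more. Between non-senescent PTEC and kidneys of 3 months all 4 ratios overlapped, with adjusted p between 0.343 and 0.686.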

How the data were processed

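Poly(A) RNA of 8 PTEC and 9 kidney samples was sequenced by the authors with a strand-directional kit, and per the study's methods processed with the nf-core/rnaseq pipeline on GRCm38. The authors deposited raw counts per gene for each sample. The aligner, counter and strand setting are not given in the sources used here. Symbols and positions came from GENCODE M21, matched by Ensembl identifier without its version.

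Counts were tested with edgeR 4.0.16 (quasi-likelihood, trimmed mean scaling, filterByExpr, Benjamini-Hochberg adjustment over all genes tested; R 4.3.3), separately for PTEC, for the 9 kidneys and for all 17 samples jointly. Calls needed an adjusted p under 0.05 together with a log2 fold change beyond 0.5 in size, thresholds taken from the study. DESeq2 1.42.0, other scalings, no filter, stricter thresholds, the replicate number as a block and leaving out each library were the alternatives, with removal of length and GC trends and of libraries rich in short transcripts added after seeing the data. The fits were tested on simulated data. CPM values come from these counts and the fitted scaling. Ratios of members were tested in Python 3.11.15 with scipy 1.17.1.

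Cultures of the same number deviated together (correlation 0.186 to 0.614 over 4 pairs, each highest with its own number). Unless stated, the PTEC test values and calls nevertheless come from the fit without pairs. The fit with culture number as a block is quoted where it changed a call. No source says that cultures came from separate animals, so p-values measure the spread between these samples. The 10 genes and the pathway and marker lists were chosen with earlier results of these data known. The text names all 10 genes and, of each pathway list, the called genes with the largest and the smallest log2 fold change in PTEC and at 24 against 3 months, plus those it singles out after their values were seen.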

Additional observations from a re-analysis of the deposited data

Results flagged for a closer look

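In non-senescent PTEC the Gpx4 level of culture 3, 471.95 CPM, stood far from the other 3 cultures, which lay between 217 and 256 CPM. In senescent PTEC the Gpx4 level of culture 3, 320.81 CPM, stood apart in the same way from the other 3, between 233 and 243 CPM. These were 2 of 28 groups of values examined for a single distant library, where chance alone gives about 1 in 20. Both libraries were the richest in short transcripts of their group, with median log2 deviations of 0.58 and 0.35, and the part of this in the Gpx4 level was not tested.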

How the results depend on the processing

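The number of the 10 genes called lower in senescent PTEC was 4, fell to 1 with a log2 fold change beyond 1 (Sod3) and to 2 with the short-transcript-rich libraries left out (Gpx1 and Prdx3), and lay between 1 and 4 when 1 library was left out, being 1 without non-senescent culture 3 and 2 without senescent culture 1, 2 or 4. At 24 against 3 months DESeq2 called 1 gene higher (Gpx3) where edgeR called 0. With the replicate block Sod3 in PTEC was at −1.44 (edgeR adjusted p = 0.211), and the block changed no other call of the 10 genes in PTEC or between ages. Over all genes the block moved the calls in PTEC from 6144 to 6876. Kidney numbers did not pair the mice at 24 against 3 or 12 against 3 months (correlations −0.42 to −0.03 and −0.70 to −0.05), and at 24 against 12 months they correlated at 0.17 to 0.56, 2 of 3 being highest with their own number. With the block the kidney calls over all genes went from 399 to 126 (24 against 3 months), 441 to 118 (12 against 3) and 227 to 0 (24 against 12).

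Directions turned for Sod1 in PTEC with length trends removed (0.18), with length and GC trends removed (0.19) and within the range without 1 library (−0.36 to 0.11). They turned for Gpx4 in PTEC with the length trend removed (0.042), without the short-transcript-rich libraries (0.036) and without 1 library (−0.30 to 0.15), and for Prdx5 in PTEC without 1 library (−0.48 to 0.027). At 24 against 3 months Sod2 turned with the length trend removed (−0.12), with length and GC trends removed (−0.11), without the short-transcript-rich libraries (−0.053) and without 1 kidney (−0.068 to 0.14), and the log2 ratio of Cat to Gpx1 without 1 kidney (−0.22 to 0.62). Gpx4 at 12 against 3 months lay between −0.82 and 0.018 without 1 kidney. Prdx1 in non-senescent PTEC against kidney was at 0.13 with library size alone and between −0.63 and −0.14 without 1 library. None of these values passed the thresholds except Prdx1 at −0.63, and the cause was not tested. With length and GC trends removed Prdx3 in PTEC was at −0.47 and no longer called, whereas Sod2 was called at −0.57.

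DESeq2 called 1035, 1107 and 779 genes at 24 against 3, 12 against 3 and 24 against 12 months. Without 1 kidney the calls over all genes were 74 to 794, 52 to 716 and 1 to 63. Without 1 library they were 5001 to 6597 in PTEC, and 3753 with a log2 fold change beyond 1. The 10 genes had at least 126 counts in every library.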
